A study of Mus musculus with 4 samples.

Results

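Eif1, Eif1b, Eif5 and Bzw1 were the 4 genes examined, of 4878 listed in a ribosome profiling table of mouse embryonic fibroblasts. They were chosen by name, as factors of start codon selection whose own mRNAs are known for control at the start codon, and all 4 were listed. The choice was made with earlier results of these data known. Mouse embryonic fibroblasts are connective tissue cells grown from embryos. Here they were at passages 5 to 8, and the labels give no genotype or strain. One group received the Si-Negative control siRNA and the other the Si-eIF1A siRNA, both with Lipofectamine RNAimax, with 2 libraries each. Ribosome profiling sequences the mRNA fragments (footprints) that ribosomes protect from RNase I, and the design asks how footprints differ when the initiation factor eIF1A is lowered. The labels do not state whether replicates were separate cultures. The p-values therefore reflect the spread of these 4 libraries alone, and that spread may be technical.

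A scanning ribosome reads the leader, or 5' UTR, of an mRNA from its cap and decides at each candidate codon whether to start. eIF1 and eIF1A hold the small subunit in an open, scanning form that passes over poor start sites, eIF1 leaves once an AUG is paired, and eIF5 promotes that step and the GTP hydrolysis of eIF2. BZW1 is an eIF5 mimic that binds eIF2 without that activity and competes with eIF5. The circuit is known to regulate itself: the AUG of the eIF1 coding sequence lies in a poor context that eIF1 itself discriminates against, that of BZW1 is known to be poor as well, and the eIF5 mRNA carries upstream AUGs that hold back its coding sequence.

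The sequence at the annotated start of each mRNA is shown because Eif5 alone among the 4 had an AUG there. Each line gives the first 30 bases from the RefSeq transcript start on the plus strand of GRCm38.p6 (the mm10 build), as genomic DNA from 5' to 3', with ATG in capitals.
Eif1, chr11:100319949-100319978: gggcggctatataagtgaatacaggcgccg
Eif1b, chr9:120492606-120492635: aaatacgcggcgccggccattttgtgcgag
Eif5, chr12:111538101-111538130: gcgagccaATGacaagagaagttgggaggg
Bzw1, chr1:58392898-58392927: ggaggccggccgctgcggcggaggaagggg
The Eif5 ATG began at position 9, and its frame reached a TAA stop at positions 42 to 44, so that it spans 11 codons before the stop. The third base before this ATG was C and the base after it was A. A strong start context is known for a purine at the first of these places and a G at the other. Exon bounds were not used here, so whether this short frame lies wholly in the first exon was not checked. An ATG lay in the first 50 bases of 44.3% of all 32851 RefSeq start windows, and one with an in-frame stop inside those bases in 11.7%. The 300-base windows, from 250 bases before to 50 after the start, were searched on both strands for CACGTG, a site bound by MYC, and for TGATGNAA, the core of amino acid response elements. CACGTG was found in Eif1b and in 7.15% of all windows, and TGATGNAA in none of the 4 and in 3.97% of all. TATATA and TATAAA were searched in the same way. TATATA was found in Eif1, within the 30 bases printed above, and in 5.67% of all windows. TATAAA was found in none of the 4 and in 13.6% of all. Whether the mRNAs of these cells begin at the annotated starts was not tested. A match of letters is a description and not a binding site.

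The listed genes held 280649 to 617663 reads a library, fewest in knockdown replicate 2. On 5' UTRs lay 11.6% and 13.7% of the reads of control replicates 1 and 2, against 19.95% and 32.4% of those of knockdown replicates 1 and 2. Eif1ax and Eif1a, the genes of the siRNA target, were not analysed here, which leaves the depth of the knockdown unknown. Of 13 fibroblast markers fixed for this purpose, Vim, Fn1 and S100a4 were listed, with summed coding values of 3853 and 5504 normalized reads in the controls and 3454 and 2871 in the knockdown libraries. Of 17 markers of other cell types only the neuronal marker Map2 was listed, at 65.9 and 55.3 in the controls and 15.3 and 6.38 in the knockdown libraries. The markers moved apart: S100a4 fell from 142 to 17.9 on average (limma adjusted p = 2.4e-05), Map2 fell (limma adjusted p = 0.000648), and Vim (log2 0.38) and Fn1 (log2 -0.74), which makes up most of the sum, did not pass. Their part in the results was not tested. Footprints depend both on how much of an mRNA is present and on how it is translated, and in such bulk samples fewer cells and less RNA per cell cannot be told apart.

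Eif1 gained footprints in both regions, with the larger rise in its 5' UTR. In coding sequence the controls had 330.3 and 342 normalized reads and knockdown replicates 1 and 2 had 1579 and 1459 (normalized reads are read numbers per gene divided by 1 factor per library). Both knockdown libraries lay above both controls, and libraries of 1 group differed little. The coding change was 2.17 ± 0.29 on the log2 scale (SE; limma adjusted p = 0.000102), the 51st largest rise of 4619 genes tested. This and all other changes are knockdown over control on the scale of log2(value + 1), with p-values adjusted over all genes tested and a threshold of 0.05.

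In its 5' UTR Eif1 had 56.6 and 56.2 normalized reads in the controls, and 784 and 1226 in knockdown replicates 1 and 2. The groups lay far apart, and the higher of the knockdown values came from the library with the larger 5' UTR share over all genes. The log2 change was 4.10 ± 0.42 (SE; limma adjusted p = 1.81e-19), the eighth largest of 2101 genes tested, where the median of all genes was 1.09. In this fit every gene received a shared variance from the trend, so very small p-values rest on that shared value. The counted reads were 144 in the controls together and 1539 in the knockdown libraries, a ratio of 16.9 after scaling, with an exact 95% counting interval of 14.3 to 20.2. This interval, and those of the counting ratios below, pool the libraries of a group and leave out the spread between them. Eif1 took 0.110% and 0.0866% of all listed 5' UTR reads in the controls and 0.843% and 0.844% in the knockdown libraries.

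**Figure D1:**
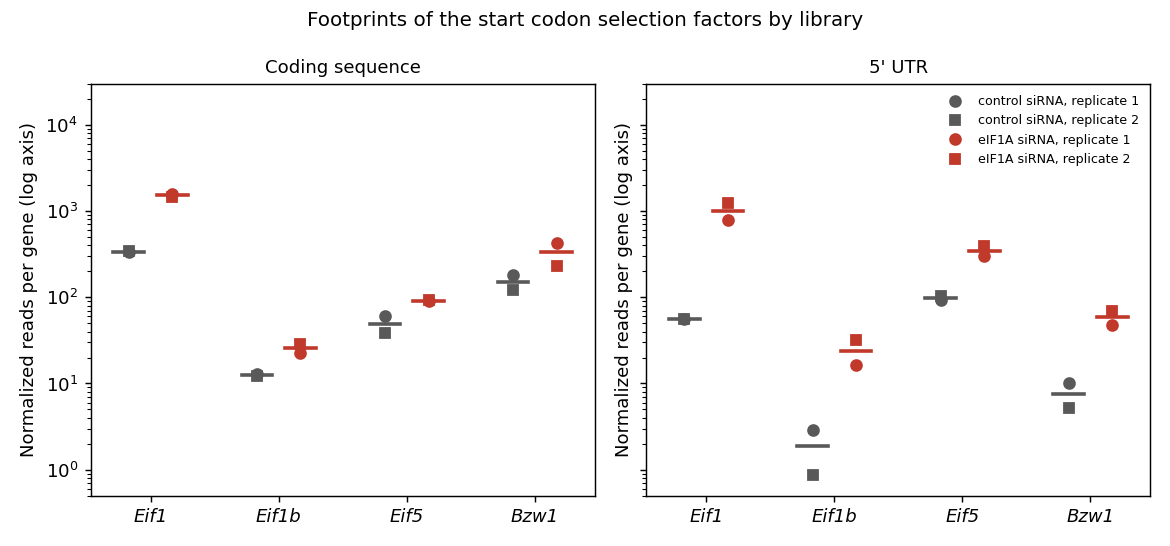
Normalized reads of the 4 genes in coding sequence (left) and 5' UTR (right) on a log axis, with grey for control siRNA, red for eIF1A siRNA, circles for replicate 1, squares for replicate 2 and lines for means of 2 libraries. Both knockdown libraries lie above both controls for each gene in each region, and the Eif1 5' UTR shows the widest gap of group means, from 56.4 to 1005.

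Eif1b encodes a close paralog of eIF1, and reads of near-identical stretches could be assigned to either gene, so both values carry that uncertainty. It was thinly covered. Its coding values were 12.9 and 12.1 normalized reads in the controls and 22.4 and 28.7 in knockdown replicates 1 and 2, which rest on 18, 14, 22 and 18 reads. The groups did not overlap, but the log2 change of 0.97 ± 0.43 (SE) missed the threshold (limma adjusted p = 0.0984). With TMM factors in place of the authors' scaling it passed (limma adjusted p = 0.039), as it did without knockdown replicate 1 (limma adjusted p = 0.0375). In the 5' UTR, Eif1b had 4 and 1 reads in the controls, or 2.87 and 0.864 normalized, against 16 and 20 reads, or 16.3 and 31.9 normalized, in the knockdown libraries. It was higher in both knockdown libraries, by a counting ratio of 11.4 with an exact 95% interval of 4.47 to 37.3. A region was tested only where its mean over the 4 libraries was at least 10. The Eif1b 5' UTR reached this only through the knockdown libraries, so its rise is a value only. The lowest value of the table is 1 read, which may be an added one. With 1 read taken off each value, the ratio was 18.0 with an interval of 5.65 to 91.5.

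Eif5, the factor that acts against eIF1 at the start codon, carried more footprints on its 5' UTR than on its coding sequence in every library. Its 5' UTR had 91.7 and 104 normalized reads in the controls and 303 and 389 in knockdown replicates 1 and 2. Both knockdown libraries were above both controls, and the change was 1.81 ± 0.43 in log2 units (SE; limma adjusted p = 0.000224). This was the 512th largest of 2101 changes and lay 0.72 above the median of all genes. The 5' UTR call was lost without control replicate 1 or without control replicate 2 (limma adjusted p = 0.106 and 0.0605), when the spread came from the knockdown pair alone.

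The Eif5 coding sequence had 60.2 and 38.9 normalized reads in the controls and 90.5 and 92.6 in the knockdown libraries. The knockdown libraries agreed closely while the controls did not, and the groups did not overlap. The log2 change was 0.91 ± 0.32 (SE; limma adjusted p = 0.0438). The call was lost in 5 of 15 alternatives, among them without control replicate 1 and without control replicate 2 (limma adjusted p = 0.0998 and 0.409) and with DESeq2 (adjusted p = 0.128). Without control replicate 2 the log2 change was 0.60.

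Bzw1, the eIF5 mimic, rose in coding sequence, unevenly between replicates. It had 179.8 and 122.7 normalized coding reads in the controls and 430.2 and 233 in knockdown replicates 1 and 2. All knockdown values were above the controls, but knockdown replicate 2 was closer to control replicate 1 than to its own replicate. The log2 change was 1.09 ± 0.33 (SE; limma adjusted p = 0.0226). The call was lost in 4 of 15 alternatives: without a variance trend (limma adjusted p = 0.0749), and without control replicate 1, control replicate 2 or knockdown replicate 1 (limma adjusted p = 0.0856, 0.316 and 0.145). Without knockdown replicate 1 the log2 change was 0.65.

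In normalized reads the 5' UTR of Bzw1 ran the other way between the knockdown replicates. It had 10.03 and 5.19 normalized reads in the controls, from 14 and 6 reads, and 47.8 and 68.6 in knockdown replicates 1 and 2, from 47 and 43 reads. Its share of all listed 5' UTR reads was 0.0196% and 0.00799% in the controls and 0.0514% and 0.0473% in knockdown replicates 1 and 2. The order of the knockdown replicates thus depended on the scale. The groups lay well apart. The counting ratio was 7.14, with an exact 95% interval of 4.36 to 12.2. Like Eif1b, Bzw1 reached the minimum mean of 10 only through the knockdown libraries, with a control mean of 7.61, and had to differ. Its fitted log2 change of 2.82 ± 0.53 (SE; limma adjusted p = 3.12e-06) is therefore a value only.

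Set against all genes, 3 of the 4 passed the limma threshold upwards in coding sequence, where 10.6% of 4619 genes did, and none passed downwards, where 18.7% did. Their median log2 change was 1.03, beside -0.16 over all genes tested. Because the 4 genes were chosen with earlier results of these data known, comparisons of their counts with all genes are descriptions. In coding sequence the knockdown libraries did not overlap the controls and were higher for each of the 4, as for 26.0% of genes. In the 5' UTR 44.0% of 2101 tested genes passed upwards, so a rise there was common in these libraries, and the groups were apart in that direction in 67.4%. Eif1 and Eif5, which reached the minimum mean of 10 in the controls too, both rose, where 31.0% of the 1397 genes that also reached it did. Eif1b and Bzw1 reached it only through the knockdown libraries and had to differ, so their 5' UTR calls (Eif1b: log2 3.15, limma adjusted p = 0.00014) are given as values. Exchanging the authors' scaling for TMM factors moved the coding calls from 488 higher and 864 lower to 782 and 768, and the median of all genes from -0.16 to 0.01. Quantile normalization moved the 5' UTR calls from 924 higher and 59 lower to 388 and 385, and that median from 1.09 to 0.05. Each of the 4 genes had a positive log2 change in both regions under both scalings. The Eif1 coding change was 2.34 with TMM factors and 2.43 with quantile normalization, and its 5' UTR change was 4.26 and 3.52.

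**Figure D2:**
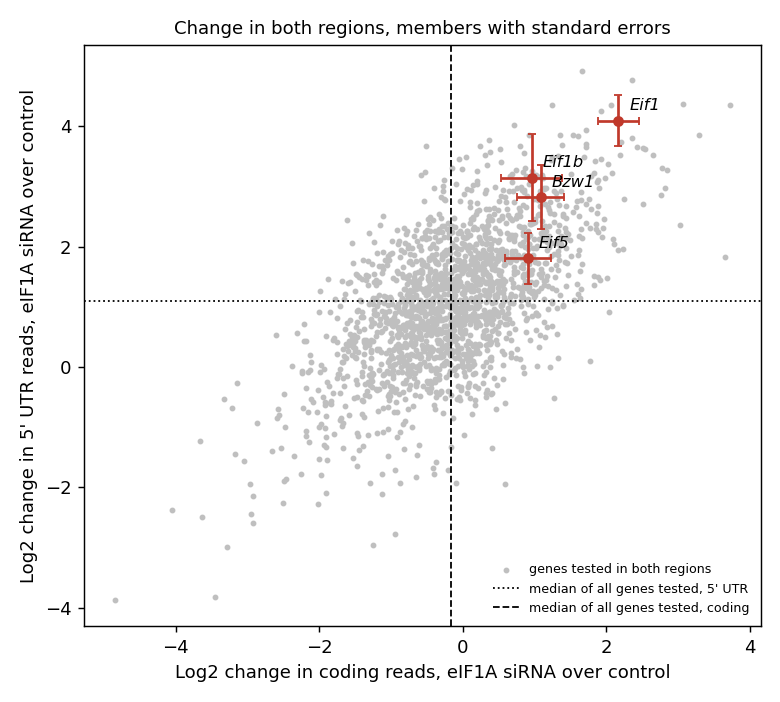
Log2 change of each gene tested in both regions, eIF1A siRNA over control siRNA, with coding reads on the horizontal and 5' UTR reads on the vertical axis. Red points are the 4 genes with standard errors, and the dashed and dotted lines are the medians of all genes tested, -0.16 and 1.09. All 4 lie above both medians, with Eif1 at 2.17 and 4.10.

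The balance between leader and coding footprints within each gene was compared next, since mRNA amount and library scale largely cancel in it. Of the reads of Eif1, 14.6% (exact 95% Clopper-Pearson interval 11.8% to 17.9%) and 14.1% (11.1% to 17.6%) lay in the 5' UTR in the controls. In knockdown replicates 1 and 2 it was 33.2% (31.3% to 35.1%) and 45.7% (43.3% to 48.1%). These intervals cover counting error only. Leader and coding lengths were not used, so a share above or below that of all genes is a description. The Eif1 shares were thus a little above those of all listed genes in the controls and further above them in both knockdown libraries.

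Eif5 started from a high share, 60.4% (53.5% to 67.0%) and 72.7% (65.3% to 79.4%) in the controls, and had 77.0% (72.5% to 81.1%) and 80.8% (75.9% to 85.1%) in the knockdown libraries. The interval of control replicate 2 overlapped that of both knockdown libraries. Bzw1 lay below the share of all listed genes in every library, at 5.28% (2.92% to 8.71%) and 4.05% (1.502% to 8.61%) in the controls and 10.0% (7.44% to 13.1%) and 22.8% (16.98% to 29.4%) in knockdown replicates 1 and 2. Eif1b had 18.2% (5.19% to 40.3%) and 6.67% (0.169% to 31.9%) in the controls and 42.1% (26.3% to 59.2%) and 52.6% (35.8% to 69.0%) in the knockdown libraries. The share was higher in knockdown replicate 2 than in replicate 1 for each of the 4, as it was over all listed genes.

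**Figure D3:**
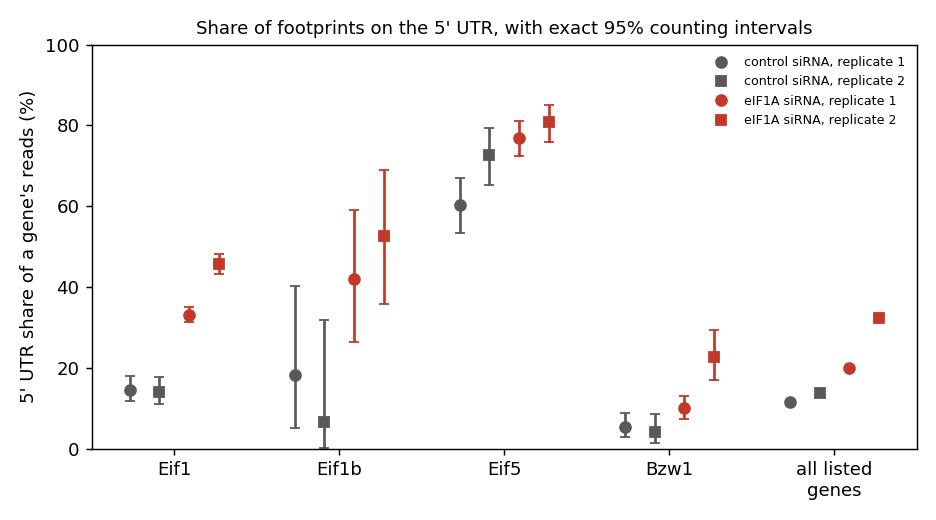
Share of a gene's reads that lie on its 5' UTR in each library, in percent, with exact 95% counting intervals, and the share over all listed genes at the right, drawn without intervals. Grey is control siRNA, red is eIF1A siRNA, circles are replicate 1 and squares are replicate 2. Eif1 moves from 14.6% and 14.1% to 33.2% and 45.7%, and all listed genes from 11.6% and 13.7% to 19.95% and 32.4%.

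The log2 ratio of 5' UTR to coding reads was tested across genes. It was higher in both knockdown libraries than in both controls for each of the 4, as for 63.9% of 1907 genes. It passed the threshold for Eif1 and for none of the other 3, where 20.5% of genes passed upwards. For Eif1 it changed by 1.92 ± 0.61 (SE; limma adjusted p = 0.0169), from 0.171 and 0.164 to 0.496 and 0.840 leader reads per coding read. As in the 5' UTR fit, every gene received a shared variance from the trend, so SE and p-values of the ratio do not measure a gene's own spread. The Eif1 change was the 425th largest of 1907. The median change of all genes was 1.23, so the Eif1 change lay 0.70 above it, and whether it differed from that of other genes was not tested. The Eif1 call was lost in 5 of 15 alternatives: with quantile normalization, which takes off the general rise (log2 1.06, limma adjusted p = 0.107), without a variance trend (limma adjusted p = 0.0599), and without control replicate 1, control replicate 2 or knockdown replicate 2 (limma adjusted p = 0.739, 0.476 and 0.0807). Eif1b (2.18 ± 0.95), Bzw1 (1.73 ± 0.74) and Eif5 (0.90 ± 0.72) gave log2 ratio changes with limma adjusted p of 0.0773, 0.0754 and 0.336. Eif5 lay 0.33 below the median of all genes (a difference of -0.33), and with quantile normalization its change was -0.26. Eif1b and Bzw1 entered this test only through their knockdown 5' UTR reads, which favours a raised ratio, so their ratio changes are values only. Without knockdown replicate 1 they were 2.48 and 2.43, and without knockdown replicate 2 they were 1.89 and 1.04. With quantile normalization the ratio changes of Eif1b and Bzw1 were 1.03 and 0.29.

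The partners of these factors in the preinitiation complex were compared in coding sequence, where 10.6% of all genes passed upwards and 18.7% downwards. Of 18 other factors of that complex and of start codon selection, such as eIF2, its exchange factor eIF2B and recycling factors, 9 were tested for coding reads, and 1 rose. That was Eif2s3x, the gamma subunit of eIF2, at 134 and 91.6 normalized coding reads in the controls and 279 and 158 in the knockdown libraries (log2 0.92, limma adjusted p = 0.0468), a call lost in 6 of 15 alternatives. The list's median log2 change was 0.60. Bzw2, the second eIF5 mimic, had 21.5 and 13.0 in the controls and 45.8 and 23.9 in the knockdown libraries and did not pass (log2 0.95, limma adjusted p = 0.106). In Bzw2, as in Bzw1, knockdown replicate 1 was the higher of its pair in coding sequence. The same held for each of the 9 tested genes of this list, so it was not particular to the eIF5 mimics.

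eIF3, the scaffold that eIF1 and eIF5 bind on the small subunit, gave 2 rises among 7 tested subunits of 14, beside the same 10.6% of all genes, with a median log2 change of 0.77. Eif3h had 82.4 and 56.2 normalized coding reads in the controls and 278 and 101 in the knockdown libraries (log2 1.28, limma adjusted p = 0.0239). Eif3b, a core subunit, changed by 0.77 (limma adjusted p = 0.0471). Among 12 cap-binding and scanning helicase genes, 8 were tested and 2 rose, the helicase Eif4a1 (log2 1.21, limma adjusted p = 0.0258) and the cap-binding protein Eif4e (log2 1.01, limma adjusted p = 0.049), and the median was 0.59. None of the tested genes of these 3 lists fell. The calls of Eif3h, Eif3b, Eif4a1 and Eif4e were lost in 4, 7, 4 and 7 of 15 alternatives, and the number of rises ranged from 0 to 6 among the eIF3 subunits, 0 to 5 among the cap-binding and helicase genes and 0 to 6 among the other factors. No member of these 3 lists passed without control replicate 1, control replicate 2 or knockdown replicate 1, and 4, 4 and 6 did without knockdown replicate 2. Eif3h, Eif3b, Eif4a1 and Eif4e stood at the lowest value of 1 read on the 5' UTR in every library, so their leaders could not be compared. Other members with a mean of at least 10 in the controls were compared in the 5' UTR, where 31.0% of all such genes passed upwards. There 3 of 3 of the preinitiation complex factors, 2 of 2 eIF3 subunits and 3 of 3 cap-binding and helicase genes passed. Eif4g1 among them had 19.3 and 22.5 normalized reads in the controls and 22.4 and 102 in knockdown replicates 1 and 2 (limma adjusted p = 0.0466). Its knockdown replicate 1 thus lay within the control range. In each of the others both knockdown libraries lay above both controls.

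Other mRNAs known for a non-AUG start, a poor start context or leaky scanning were compared in the same way. Of 13, 5 were tested for coding reads, with a median log2 change of 0.68. Cebpb (log2 0.71), Oaz2 (log2 0.68) and Vegfa (log2 0.545) had positive changes that did not pass. Of the 4 that reached the minimum mean in the controls too, none rose and 1 fell, beside the 10.6% and 18.7% of all genes. Myc reached it only through the knockdown libraries and had to differ, so its values are a description. Myc, a transcription factor of growth with an added CUG start, had 5.73 and 6.05 normalized coding reads in the controls and 41.7 and 51.1 in the knockdown libraries (log2 2.77). Ddx17, an RNA helicase whose longer form starts at a CUG, fell from 528 and 602 to 191 and 207.5 (log2 -1.497, limma adjusted p = 0.00131). The Ddx17 call was lost in 1 of 15 alternatives, without control replicate 2 (limma adjusted p = 0.0842). On its 5' UTR Ddx17 had 58.0 and 91.6 normalized reads in the controls and 158 and 196 in the knockdown libraries, a rise of 1.26 (limma adjusted p = 0.0145). That change lay 0.17 above the median of all genes. Ddx17 was 1 of 3 mRNAs of this list with a control mean of at least 10 on the 5' UTR, and the 1 that passed, a share near the 31.0% of all such genes. With its coding reads lower, its log2 ratio of 5' UTR to coding reads changed by 2.76 (limma adjusted p = 0.00216). This was the 102nd largest of 1907 ratio changes and lay 1.53 above the median. For Vegfa (-0.28) and Oaz2 (-0.44), the others with that control mean on the 5' UTR, the ratio change was negative and did not pass. Cebpb (log2 3.31, the 18th largest of 1907) and Myc (log2 0.54, beside the median of 1.23) had positive ratio changes. Cebpb and Myc reached the 5' UTR minimum only through the knockdown libraries, which favours a raised ratio, so their ratio changes are values only.

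**Figure D4:**
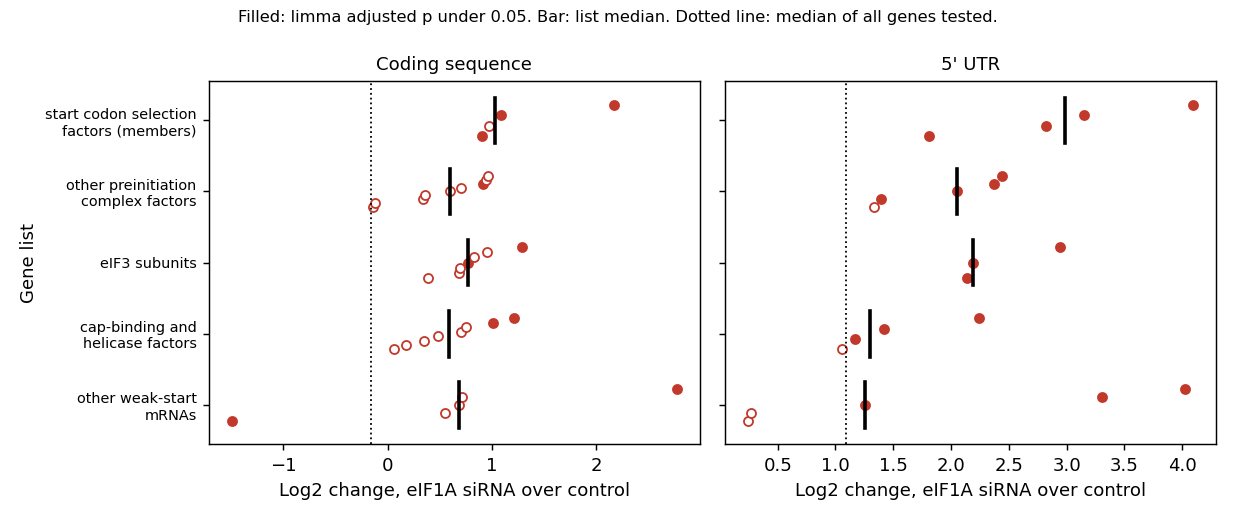
Log2 change between the eIF1A siRNA and control siRNA libraries for the tested genes of 5 lists in coding sequence (left) and 5' UTR (right), with filled dots for genes past the limma threshold, a black bar at each list's median and a dotted line at the median of all genes tested. In coding sequence the 4 start codon selection factors have a median of 1.03 and the eIF3 subunits one of 0.77. In the 5' UTR many genes reached the minimum level only in the knockdown libraries, so the right panel is a description.

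The 4 genes did not share one pattern over the 4 libraries. Likeness was measured as the root mean square distance between log2 coding values centred on each gene's mean, among 1846 named genes whose mean reached 50 normalized reads. Eif5 and Eif1b were the closest pair of the 4 (0.221), and Eif1 and Eif5 the farthest (0.678). The genes most like Eif1 were Ddx21, a nucleolar RNA helicase (0.0901), the small ribosomal subunit protein Rps9 (0.101) and the cold shock domain protein Ybx3 (0.147). Ddx21 had 73.8 and 64.8 normalized coding reads in the controls and 342 and 319 in the knockdown libraries. Closest to Eif5 were Tcea1, a transcription elongation factor (0.0387), Gars, glycyl-tRNA synthetase (0.0408), and Pmpca, a mitochondrial processing peptidase subunit (0.0423). The nearest to Bzw1 were the splicing factor Sf3a2 (0.0468), seryl-tRNA synthetase Sars (0.067) and Ilf2 (0.0792), which share its high knockdown replicate 1. Eif1b lay nearest to Cox4i1, a subunit of cytochrome c oxidase (0.0483), Ranbp10 (0.0704) and Gtse1 (0.0864). With 4 libraries such distances are descriptions.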

How the data were processed

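The deposited signal is, per the file headers, a normalized read number per gene for the 5' UTR and the coding sequence of 4 libraries. Per the submitters' processing notes, cutadapt, Bowtie, TopHat2, HTSeq and DESeq2 were used with the mm10 build. No versions or filters are stated there. All values (100%) were whole multiples of the lowest value of their library, within 0.001 reads. Whole reads were recovered by division, with 1 read worth 0.717 to 1.60. No source used here states the handling of genes with no reads, and 1 read may stand for 0.

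Values were tested with limma 3.58.1 in R 4.3.3 as log2(value + 1), with a variance trend and Benjamini-Hochberg adjustment. Genes needed a mean of 10, in both regions for the ratio. Count tests on recovered reads used edgeR 4.0.16 (1517 genes called in coding sequence, 995 in the 5' UTR and 342 in the ratio) and DESeq2 1.42.0. All 3 were tested on simulated data. With 2 libraries against 2, an exact permutation test cannot give a p below 0.333. Coding lengths were not used, so levels are not compared between genes. RefSeq symbols matched 4668 genes directly and 204 by an older name. The members and lists were chosen with earlier results of these data known. Other genes were named by rule: up to 4 called members a list, and the 3 most alike per gene. Bzw2, Cebpb, Oaz2, Vegfa, Eif4g1, Eif2s2, Denr, Eif1ad, the ratio value of Myc, and the 5' UTR and ratio values of Ddx17, were added after values were seen.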

Additional observations from a re-analysis of the deposited data

How the results depend on the processing

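Across 15 alternatives the log2 changes of the 4 genes kept their sign in coding sequence and 5' UTR. The Eif1 coding change (2.11 to 2.43) and 5' UTR change (3.52 to 4.42) passed in all 15. A mean of at least 20 left Eif1b out, and DESeq2 gave no adjusted p for its ratio. Eif5 reversed in the ratio with quantile normalization (-0.26), where Eif1 was at 1.06 and below the threshold. Without the variance trend the calls of Eif1 in the ratio (1.92), of Eif5 (0.91) and of Bzw1 (1.09) in coding sequence ended at the same log2 change, while Eif1b was past the threshold in the ratio (2.18). The Eif5 coding call also ended with DESeq2 (0.88) and with 1 read less per value (0.91), and Eif1b passed in coding sequence with TMM factors (1.13). The causes were not tested.

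With 1 library left out, the lone library of its group is assumed to vary like the other group. The log2 changes then spanned 0.79 to 1.14 for Eif1b, 0.60 to 1.21 for Eif5 and 0.65 to 1.53 for Bzw1 in coding sequence, and 1.63 to 1.99 for Eif5 in the 5' UTR. In the ratio they spanned 1.55 to 2.30 for Eif1, 1.70 to 2.67 for Eif1b and 1.04 to 2.43 for Bzw1. Genes called higher and lower spanned 3 to 876 and 8 to 1170 in coding sequence, 179 to 1347 and 6 to 113 in the 5' UTR, and 0 to 1163 and 0 to 27 in the ratio. The 0 came from limma without control replicate 1 or without control replicate 2, where 121 and 194 genes had an unadjusted p under 0.05.

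Counts of genes also moved by setting. Coding sequence gave 782 higher with TMM factors and 296 with DESeq2. The 5' UTR gave 565 higher and 32 lower at a mean of 20, 388 and 385 with quantile normalization, and 21 and 27 lower with TMM factors and DESeq2. The ratio gave 237 higher at a mean of 20, 3 higher and 6 lower with quantile normalization, and 3, 2 and 2 lower with no filter, DESeq2 and 1 read less per value.

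Libraries of the 2 groups share only a replicate number. Across genes the deviations of same-numbered libraries correlated at 0.261 in coding sequence, -0.0611 in the 5' UTR and 0.122 in the ratio. With the replicate number as a block, 746 genes were higher in coding sequence, and 852 were higher and 10 lower in the ratio. Eif1b (2.18) and Bzw1 (1.73) were then past the threshold in the ratio, which the filter favours because both reached its 5' UTR minimum only in the knockdown libraries. The block changed no other call of the 4 genes. Depth limits Eif1b most, with 5 control reads on its 5' UTR, and a table of listed genes does not show the full depth of the libraries.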
